A study of Mus musculus with 6 samples.

Results

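The drug-metabolizing CYP2, GST, MGST, UGT and SULT genes of the mouse kidney were taken as every gene whose symbol begins with Cyp2 followed by a letter from a to j, or s, t or u, and a digit, with one of the soluble glutathione transferase classes (Gst a, k, m, o, p, t or z), or with Mgst, Ugt1, Ugt2, Ugt3 or Sult. The rule found 100 probe sets with 1 gene symbol, which stand for 80 genes of the 18193 genes on the array: 34 Cyp2 genes, 20 Gst genes, 3 Mgst genes, 10 Ugt genes and 13 Sult genes. Each gene is read from its probe set with the highest mean over the 6 arrays. The rule uses symbols and mean signal, not differences between the groups. Kidney RNA came from male mice aged 10 weeks. The ICD group held 3 animals heterozygous for an allele that expresses the intracellular part of megalin in soluble form, and the wild type group held 3 of their littermates. Each animal was measured on 1 Affymetrix array. The labels do not name the promoter or the part of the megalin gene that the allele carries, nor the strain.

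Enzymes of the CYP2 family put a hydroxyl or epoxide group on drugs, steroids and fatty acids, with electrons passed on by cytochrome P450 reductase and cytochrome b5. Glutathione transferases (GST, and the membrane-bound MGST), glucuronosyltransferases (UGT) and sulfotransferases (SULT) join glutathione, glucuronic acid or sulfate to such products, which carriers of the proximal tubule then move into the urine. In the mouse kidney several of these genes are known to be expressed at high levels in the proximal tubule, the segment where megalin works as an endocytic receptor, and several differ between the sexes.

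All values are log2 signals, and differences are ICD minus wild type. The brightness of a probe set depends on its probes, so levels are compared between arrays and not between genes. Megalin's gene Lrp2 checks the genotype labels only in part, since its probe sets may lie outside the introduced part. At probe set 1427133_s_at it read 12.25, 12.37 and 12.26 in ICD kidneys and 13.01, 12.97 and 12.13 in wild type kidneys, and at 1452320_at the groups differed by 0.0079. At the dimmer 1445901_at it read 7.21, 6.83 and 6.93 in ICD kidneys and 6.77, 7.23 and 6.62 in wild type kidneys, with overlap. The array labelled wild type 3 therefore lay with the ICD arrays at the first of these probe sets. The same array stood apart for early proximal tubule markers, which identify the first segments of the tubule. All 8 were measured, with list scores (mean log2 signal minus the mean of the 6 arrays) of 0.32, 0.20 and 0.39 in ICD kidneys and 0.38, 0.047 and -1.35 in wild type kidneys. The sodium-coupled monocarboxylate transporter gene Slc5a12 read 9.27 to 10.47 on 5 arrays, all 3 ICD arrays among them, but 4.12 on this one. Not every marker was low there: Pck1 read 13.04 on this array and 12.64 to 13.09 on the others. Late proximal tubule scores were 0.036, 0.18 and -0.076 in ICD kidneys and -0.099, -0.12 and 0.082 in wild type kidneys, so that array did not stand apart there.

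None of the 80 genes passed the test between ICD and wild type kidneys (limma adjusted p under 0.05), and neither did any of the 45037 probe sets tested (0%). The lowest adjusted p among the 80 genes was 0.798. ICD kidneys were higher for 41 genes and lower for 39, with a median difference of 0.013, where the median over all 18193 genes was -0.012. The differences of 56 of the 80 genes (70%) lay within 0.1 of 0, as did those of 73.4% of all genes. Of the 80 genes, 34 had a mean signal below the median of 6.64 over all probe sets, as did 6502 of the 18193 genes. They were 15 of 34 Cyp2, 4 of 20 Gst, 1 of 3 Mgst, 6 of 10 Ugt and 8 of 13 Sult genes. Differences of dim probe sets are compressed, so a small difference there may understate a change. At the far end, 5 members (6.25%) differed by more than 0.5, against 0.390% of all genes: Ugt2a3, Ugt2b37, Ugt2b5, Cyp2d26 and Ugt2b38. Chosen after their values were seen, 4 of these 5 belong to 1 run of Ugt2 genes on chromosome 5.

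At an unadjusted limma p under 0.05, 5 members (6.25%) were higher in ICD kidneys, where 1.74% of all genes were. They were Ugt2b5, Ugt2a3, Ugt2b37, Cyp2j6 and Sult2a2. One member (1.25%), Cyp2u1, was lower, where 2.2% of all genes were. Every ICD array lay above every wild type array for 2 members (2.5%), Ugt2b5 and Sult2a2, beside 3.66% of all genes. The reverse held for 1 member (1.25%), Cyp2u1, beside 5.44% of all genes. Groups without overlap were thus no more frequent among the members than among all genes. The median 95% confidence interval reached 0.215 to either side of a member's difference, against 0.188 over all genes. These intervals are not adjusted for the number of probe sets tested. With 3 animals a group, much larger differences, such as that of 1.01 for Ugt2a3, also did not pass the adjusted threshold.

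**Figure D1:**
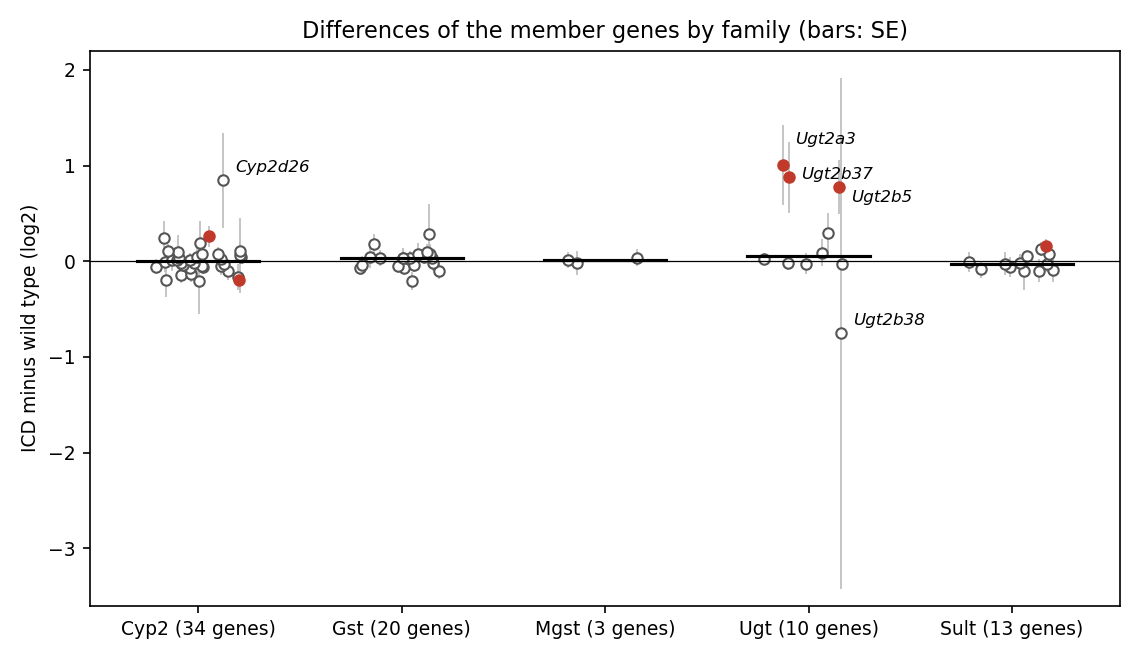
ICD minus wild type difference (log2, y axis) of each of the 80 genes by family (x axis), with vertical bars for 1 SE, a black line for the family median and filled points for the 6 genes at an unadjusted limma p under 0.05. The points lie close to 0 in all 5 families except for Cyp2d26 and 4 Ugt2 genes, and the bar of Ugt2b38 spans several log2 units.

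Among the glucuronosyltransferases, 6 of 10 genes were higher and 4 lower in ICD kidneys, with a median difference of 0.056 and a range from -0.75 to 1.01. That median rests on single arrays: it was 0.26 without ICD 2, 0.24 without wild type 1 or wild type 2, and 0.014 if the array labelled wild type 3 was left out. Of the family, 8 measured genes lie in a row on chromosome 5, in the order Ugt2b34, Ugt2b1, Ugt2b35, Ugt2b36, Ugt2b5, Ugt2b37, Ugt2a3 and Ugt2b38, followed by the sulfotransferase genes Sult1b1, Sult1d1 and Sult1e1. UGT2B enzymes glucuronidate steroids, bile acids and drugs. The 4 genes of this row with the largest differences stand beside each other in its order. Ugt2b5, Ugt2b37 and Ugt2b38 share more than their neighbourhood. In RefSeq (mouse assembly GRCm38.p6) an identical run of 62 bases lies just before the start of all 3 genes. It was found in the 250 bases before the start of 3 of 27025 genes with a promoter entry, these same genes. The run is in capitals in the 120 bases before each start, shown because Ugt2b38, of like promoter, gave another pattern over the 6 arrays than Ugt2b37 and Ugt2b5. They are written 5′ to 3′ along the gene (minus strand), from chr5:87424204-87424323 for Ugt2b38, chr5:87254789-87254908 for Ugt2b37 and chr5:87140341-87140460 for Ugt2b5:
Ugt2b38: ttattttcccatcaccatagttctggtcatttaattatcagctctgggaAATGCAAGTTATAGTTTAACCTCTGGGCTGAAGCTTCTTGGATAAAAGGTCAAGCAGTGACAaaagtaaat
Ugt2b37: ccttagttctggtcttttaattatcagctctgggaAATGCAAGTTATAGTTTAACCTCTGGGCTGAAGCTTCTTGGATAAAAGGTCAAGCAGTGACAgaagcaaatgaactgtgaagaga
Ugt2b5: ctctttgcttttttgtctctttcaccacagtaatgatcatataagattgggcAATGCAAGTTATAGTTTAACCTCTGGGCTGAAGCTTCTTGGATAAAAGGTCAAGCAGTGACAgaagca
Over the 250 bases, Ugt2b38 was identical to Ugt2b37 at 85.2% of aligned positions and to Ugt2b5 at 81.5%, and Ugt2b37 to Ugt2b5 at 73%.

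Ugt2b38 read 14.17, 4.94 and 13.97 in ICD kidneys, against 14.20, 14.11 and 7.04 in wild type kidneys. One animal of each group, ICD 2 and the array labelled wild type 3, was thus far below the other 4, which lay within a narrow band. The range of 9.26 log2 units, and the SD of 4.25 over the 6 arrays, made it the most variable of the 45037 probe sets, and the low arrays did not follow the genotype. The difference of -0.75 ± 2.67 (SE) had a 95% confidence interval from -6.86 to 5.36 (limma adjusted p = 0.994). Leaving out ICD 2 turned it to 2.29, and leaving out the array labelled wild type 3 gave -3.12, so the group comparison of this gene rests on those 2 arrays.

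Ugt2b37 read 11.19, 11.73 and 12.23 in ICD kidneys, against 10.38, 10.42 and 11.72 in wild type kidneys. Wild type 1 and 2 were the lowest, and the array labelled wild type 3 lay between ICD 1 and ICD 2, so the groups overlapped. The difference was 0.88 ± 0.37 (SE), with an interval from 0.027 to 1.73 (limma adjusted p = 0.843). Ugt2b5 read 6.25, 6.39 and 6.89 in ICD kidneys, against 5.06, 5.91 and 6.23 in wild type kidneys, without overlap but with the nearest arrays, ICD 1 and the array labelled wild type 3, almost level. Its difference of 0.77 ± 0.29 (SE) had an interval from 0.12 to 1.43 (limma adjusted p = 0.798) and was 0.43 without wild type 1. Neither gene was low on the 2 arrays on which Ugt2b38 was low: ICD 2 read the middle ICD value for both, and the array labelled wild type 3 read the highest wild type value for both.

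Ugt2a3, a member of the related UGT2A group, read 4.81, 6.66 and 6.54 in ICD kidneys, against 5.07, 4.86 and 5.05 in wild type kidneys. ICD 2 and ICD 3 stood above all wild type arrays, while ICD 1 lay below them all. The mean signal of Ugt2a3, 5.50, was below the median of 6.64 over all probe sets. The difference was 1.01 ± 0.42 (SE), with an interval from 0.047 to 1.97 (limma adjusted p = 0.840). Without ICD 1 it was 1.60 ± 0.096 (SE) at a limma adjusted p of 0.0148, the only fit in which any member passed the threshold. Its promoter does not hold the run of the Ugt2b genes. In the 120 bases before its start (chr5:87337196-87337315 of GRCm38.p6, minus strand) the capitals mark a pair of GTTAAT matches, a short form of the site of the factor HNF1, shown because the pattern of this gene differed from theirs:
Ugt2a3: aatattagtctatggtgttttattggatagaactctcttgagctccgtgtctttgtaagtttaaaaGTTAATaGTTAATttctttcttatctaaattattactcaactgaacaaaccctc
GTTAAT was searched on both strands over 250 bases. It was found for 7.49% of the 27025 genes with a promoter entry and, among the 8 Ugt2 genes, for 1, Ugt2a3. The matches begin 54 and 47 bases before the start and do not overlap. A match describes the letters only. Forms of the HNF1 site that depart from GTTAAT were not searched, so promoters without a match may still hold one.

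The other Ugt genes had smaller differences. Ugt2b34 read 6.27, 5.97 and 6.71 in ICD kidneys, against 6.41, 5.90 and 5.75 in wild type kidneys, and so differed by 0.29. Without ICD 3 that difference shrank to 0.097, and leaving out the array labelled wild type 3 gave 0.16. It was 0.47 if ICD 2 was dropped and 0.49 if wild type 1 was. The dimmer probe set 1427960_at differed by 0.40 (limma adjusted p = 0.800), with every ICD array at or above the highest wild type array. Ugt2b36 read 5.25, 5.34 and 5.06 in ICD kidneys, against 5.05, 5.45 and 4.88 in wild type kidneys. Ugt2b1 and Ugt2b35 were near the array's floor and each differed by -0.028. Ugt3a1 and Ugt3a2 belong to a separate group whose human enzymes use UDP-sugars other than glucuronic acid. Ugt3a1 read 12.53, 12.65 and 12.64 in ICD kidneys and 12.55, 12.62 and 12.70 in wild type kidneys. Ugt3a2 read 13.87, 13.89 and 13.84 in ICD kidneys and 13.83, 13.88 and 13.81 in wild type kidneys. Both held their level on every array, at differences of -0.016 and 0.022.

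**Figure D2:**
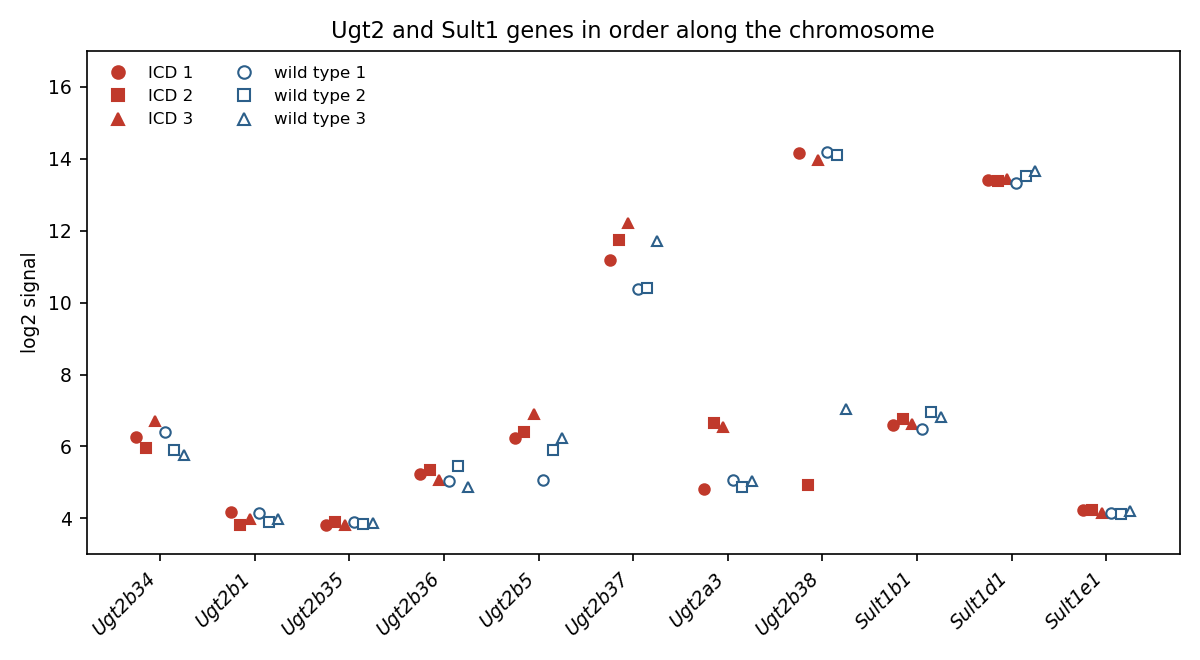
Log2 signal (y axis) of 11 Ugt2 and Sult1 genes in their order along chromosome 5 (x axis) on each array, with filled red symbols for ICD and open blue symbols for wild type. Ugt2b38 is low on ICD 2 and wild type 3 alone, Ugt2a3 is high on ICD 2 and ICD 3, and Ugt2b5 and Ugt2b37 do not share the low arrays of Ugt2b38.

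Of the 34 Cyp2 genes, 17 were higher and 17 lower in ICD kidneys, with a median difference of 0.0041 and 21 genes within 0.1 of 0. Cyp2e1, which oxidizes ethanol and other small solvents, read 14.25, 14.35 and 14.37 in ICD kidneys, against 14.30, 14.33 and 14.41 in wild type kidneys. The groups overlapped, and the difference was -0.023 ± 0.070 (SE). Cyp2j5, an epoxygenase of arachidonic acid of the mouse kidney, read 13.64, 13.64 and 13.65 in ICD kidneys, against 13.65, 13.57 and 13.66 in wild type kidneys. It differed by 0.017 ± 0.064 (SE), with all 6 arrays nearly level at this probe set. The dimmer Cyp2j5 probe set, 1417532_at, differed by 0.22 ± 0.093 (SE), with overlapping groups. Its interval ran from 0.011 to 0.44 (limma adjusted p = 0.840).

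Other Cyp2j genes, in a row on chromosome 4, varied more. Cyp2j6 read 8.83, 8.59 and 8.59 in ICD kidneys, against 8.25, 8.62 and 8.36 in wild type kidneys. Wild type 2 lay among the ICD arrays, and the difference of 0.26 ± 0.11 (SE) had an interval from 0.0047 to 0.51 (limma adjusted p = 0.846). Its other probe set, 1440691_at, differed by -0.073, in the opposite direction. Cyp2j9 read 7.80, 7.86 and 7.67 in ICD kidneys, against 7.06, 7.76 and 7.78 in wild type kidneys, so that wild type 1 alone was low and the difference of 0.24 was 0.0036 without it. Cyp2j13 read 12.01, 12.04 and 12.32 in ICD kidneys and 12.47, 11.75 and 11.87 in wild type kidneys, and so differed by 0.097 ± 0.18 (SE) with the ICD arrays inside the wild type range.

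Cyp2c23, the name under which RefSeq lists the kidney epoxygenase also known as Cyp2c44, read 9.56, 9.83 and 8.78 in ICD kidneys, against 9.30, 9.14 and 9.14 in wild type kidneys. The wild type arrays lay between the ICD arrays, of which ICD 3 was the lowest of all. The difference was 0.19 ± 0.23 (SE), but -0.027 without ICD 2, 0.11 without ICD 1 and 0.50 without ICD 3. Cyp2u1, which hydroxylates long-chain fatty acids, read 6.64, 6.61 and 6.71 in ICD kidneys, against 6.75, 6.87 and 6.94 in wild type kidneys. All ICD arrays lay below all wild type arrays, by -0.20 ± 0.074 (SE) with an interval from -0.37 to -0.030 (limma adjusted p = 0.800). Its dimmer probe set differed by -0.082.

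The Cyp2d genes, whose human relative CYP2D6 oxidizes many drugs, lie in a row on chromosome 15. Cyp2d26 read 10.68, 11.00 and 10.51 in ICD kidneys, against 10.66, 10.50 and 8.48 in wild type kidneys. The array labelled wild type 3 stood below the other 5, which overlapped. The difference of 0.85 ± 0.50 (SE) had an interval from -0.29 to 1.99 (limma adjusted p = 0.918) and was 0.15 without that array. That array also had the low score of the early proximal tubule markers, -1.35 there and 0.047 or more elsewhere. The part of those markers in the low Cyp2d26 value was not tested, and in whole-kidney RNA fewer cells of a type and less RNA per cell cannot be told apart.

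Cyp2d9, known in mice as a male-specific steroid hydroxylase, read 11.53, 12.25 and 10.95 in ICD kidneys, against 11.22, 11.82 and 12.32 in wild type kidneys. It was highest on the array labelled wild type 3, where Cyp2d26 was lowest. The difference was -0.21 ± 0.35 (SE), but turned to 0.10 without ICD 3, and to 0.054 if the array labelled wild type 3 was left out. It came to -0.55 when ICD 2 was dropped, and to -0.49 when wild type 1 was. Its neighbour Cyp2d12 read 8.82, 10.36 and 8.98 in ICD kidneys, against 8.84, 9.32 and 9.81 in wild type kidneys, and differed by 0.060 ± 0.40 (SE). For Cyp2d9 and Cyp2d12 the arrays with the highest values were the same, ICD 2 and the array labelled wild type 3, followed by wild type 2. Those 2 arrays were the low ones for Ugt2b38. The other 5 Cyp2d genes differed by -0.20 to 0.074. Of the 26 Cyp2 genes with a promoter entry, 12 (46.2%) held TATAAA, the letters of a TATA box, including all 4 Cyp2d genes among them. The share was 14.3% over the 27025 genes with a promoter entry. The letters were searched on either strand anywhere within 250 bases, so a match does not show a working TATA box.

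**Figure D3:**
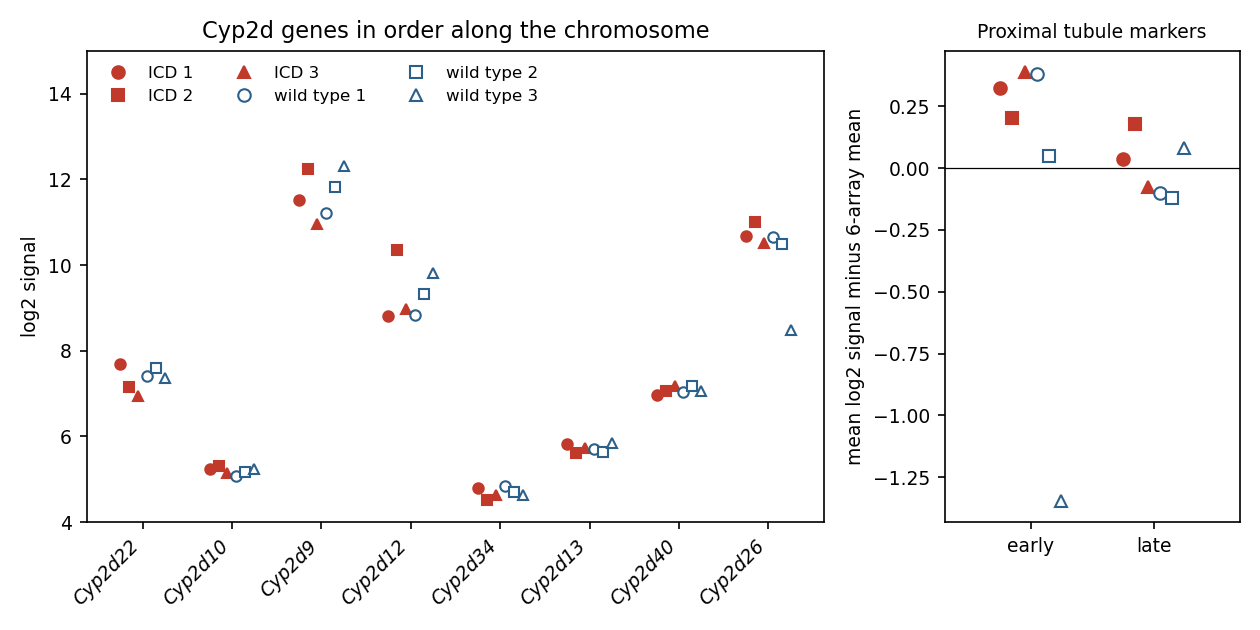
Left, log2 signal (y axis) of the 8 Cyp2d genes in their order along chromosome 15 (x axis) on each array; right, scores of the early and late proximal tubule markers (mean log2 signal minus the mean of the 6 arrays), with filled red symbols for ICD and open blue symbols for wild type. The array labelled wild type 3 is lowest for Cyp2d26 and for the early markers (-1.35), and highest for Cyp2d9.

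Among the glutathione transferases, 12 of 20 genes were higher and 8 lower in ICD kidneys, with a median difference of 0.037 and 16 genes within 0.1 of 0. Gstp1, the pi-class enzyme, read 13.34, 13.38 and 13.39 in ICD kidneys, against 13.44, 13.46 and 13.27 in wild type kidneys, and so differed by -0.022 ± 0.075 (SE). Gstm1, the main mu-class enzyme, read 12.71, 12.56 and 12.61 in ICD kidneys, against 12.67, 12.64 and 12.77 in wild type kidneys. Its 4 probe sets gave differences from -0.095 to -0.048, and the groups overlapped at all of them. The neighbouring mu-class genes Gstm2 and Gstm5 differed by -0.066 and 0.038.

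The highest Gst differences belonged to 2 alpha-class genes. Gsta2 read 12.24, 11.68 and 11.02 in ICD kidneys, against 11.63, 11.61 and 10.85 in wild type kidneys. Both groups spread widely and overlapped, at a difference of 0.29 ± 0.31 (SE). It was -0.0097 without ICD 1 and 0.60 without ICD 3, and leaving out the array labelled wild type 3 gave 0.029. Gsta3, which in mice conjugates the epoxide of aflatoxin, read 9.65, 9.90 and 9.65 in ICD kidneys, against 9.70, 9.61 and 9.35 in wild type kidneys, and so differed by 0.18 ± 0.11 (SE). This too was smaller, at 0.078, if the array labelled wild type 3 was left out, and 0.095 without ICD 2. The lowest differences were those of Gstt3 and Gstt4, both of the theta class. Gstt3 read 9.85, 10.06 and 9.81 in ICD kidneys and 9.97, 10.04 and 10.01 in wild type kidneys, and so differed by -0.10. The dim Gstt4 differed by -0.20 (-0.11 without ICD 2). The theta-class genes Gstt1 and Gstt2 went the other way, at 0.077 and 0.049. No Gst gene had an unadjusted p under 0.05, and the lowest adjusted p in the family was 0.867. The core of the antioxidant response element bound by Nrf2 was searched as TGACNNNGC on either strand. This core was found for 3 of 18 Gst genes (16.7%), against 11.5% of the 27025 genes with a promoter entry. It can include an AP-1 site (TGACTCA), and no match overlapped a GTTAAT match in any member's promoter.

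The 3 membrane-bound transferases lay within 0.1 of 0. Mgst1, which protects membranes from oxidized lipids, read 11.47, 11.36 and 11.09 in ICD kidneys, against 11.12, 11.50 and 11.36 in wild type kidneys, and so differed by -0.023. Its second probe set, 1415898_at, was dim and read 4.31, 4.09 and 4.28 in ICD kidneys, against 4.47, 4.46 and 4.60 in wild type kidneys. There the groups did not overlap, at a difference of -0.28 ± 0.084 (SE, limma adjusted p = 0.720). Mgst3, a glutathione peroxidase and leukotriene C4 synthase, read 11.20, 11.13 and 10.98 in ICD kidneys, against 11.18, 11.06 and 11.03 in wild type kidneys. Mgst2, of the same activities, read 5.72, 5.46 and 5.59 in ICD kidneys, against 5.60, 5.62 and 5.43 in wild type kidneys. Mgst3 and Mgst2 differed by 0.014 and 0.037.

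Of the 13 sulfotransferases, 4 were higher and 9 lower in ICD kidneys, with a median difference of -0.025 and 11 within 0.1 of 0. Of these 13 genes, 8 were below the median signal over all probe sets. Sult1d1, which sulfates catecholamines in mice, read 13.41, 13.38 and 13.44 in ICD kidneys, against 13.32, 13.51 and 13.65 in wild type kidneys. The ICD arrays lay inside the wild type range, at a difference of -0.085. Sult1d1 follows Ugt2b38 closely on chromosome 5 and was not low on ICD 2 or on the array labelled wild type 3. Sult1b1, a sulfotransferase of thyroid hormones, read 6.61, 6.76 and 6.62 in ICD kidneys and 6.47, 6.97 and 6.83 in wild type kidneys, and so differed by -0.097.

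Sult1c2 read 11.77, 12.01 and 11.11 in ICD kidneys, against 11.81, 11.77 and 11.60 in wild type kidneys, with both the highest and the lowest array in the ICD group. Its difference of -0.10 ± 0.20 (SE) was the lowest of the family. Sult1a1, which sulfates phenols, read 9.19, 9.03 and 8.82 in ICD kidneys, against 9.05, 9.04 and 9.01 in wild type kidneys, and so differed by -0.020. At the upper end, the hydroxysteroid sulfotransferase gene Sult2a2 read 4.54, 4.53 and 4.65 in ICD kidneys, against 4.44, 4.42 and 4.37 in wild type kidneys. All ICD arrays were higher, but near the array's floor, and the difference of 0.16 ± 0.067 (SE) had a limma adjusted p of 0.840. Sult5a1 read 7.66, 7.47 and 7.56 in ICD kidneys and 7.48, 7.47 and 7.36 in wild type kidneys, and so differed by 0.13.

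**Figure D4:**
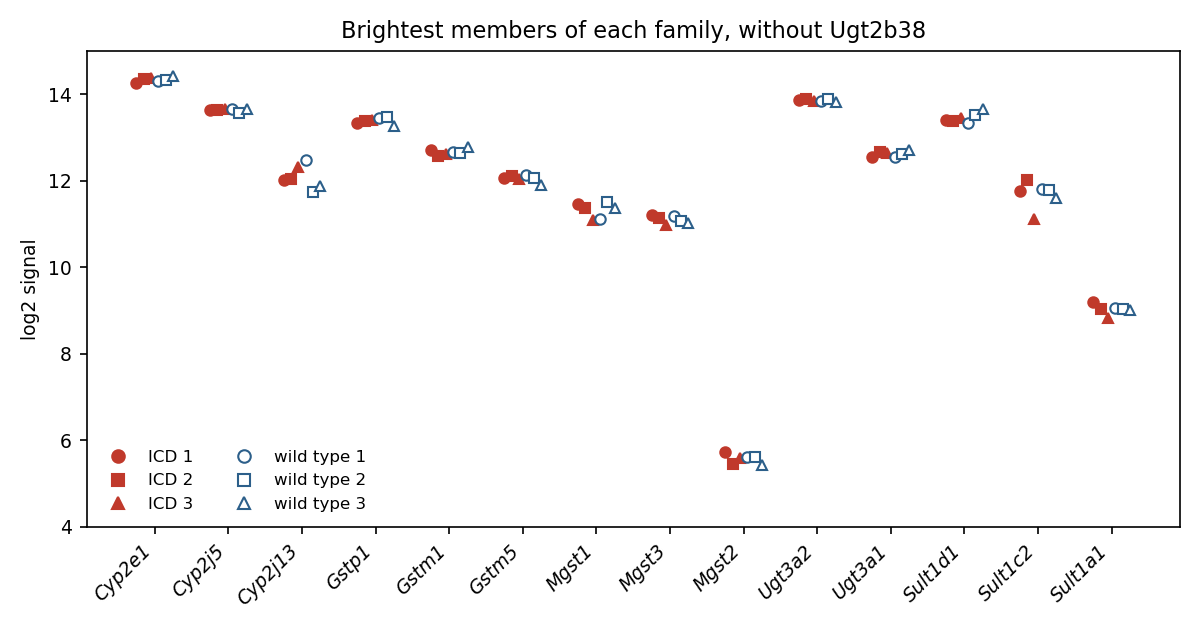
Log2 signal (y axis) of the brightest members of each family other than Ugt2b38 (x axis) on each array, with filled red symbols for ICD and open blue symbols for wild type. The arrays lie close together for Cyp2e1, Cyp2j5, Ugt3a1 and Ugt3a2 and overlap for every gene shown.

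The spread over the 6 arrays set a few members apart more than the genotype did. An SD over 0.5 was found for 8 of the 80 genes (10%): Ugt2b38 (4.25), Cyp2d26 (0.91), Ugt2a3 (0.86), Ugt2b37 (0.75), Cyp2d12 (0.62), Ugt2b5 (0.61), Cyp2d9 (0.55) and Gsta2 (0.50). Among all 18193 genes 114 had such an SD (0.627%). The median SD was 0.124 over the members and 0.0993 over all genes, so the typical member varied little more than the typical gene. By family, 4 of 10 Ugt genes, 3 of 34 Cyp2 genes and 1 of 20 Gst genes were among the 8. The array labelled wild type 3 was the lowest for Cyp2d26 and Gsta2, the highest for Cyp2d9, and within the others for Ugt2a3. ICD 2 and that array were the low ones for Ugt2b38 and the high ones for Cyp2d9 and Cyp2d12.

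**Figure D5:**
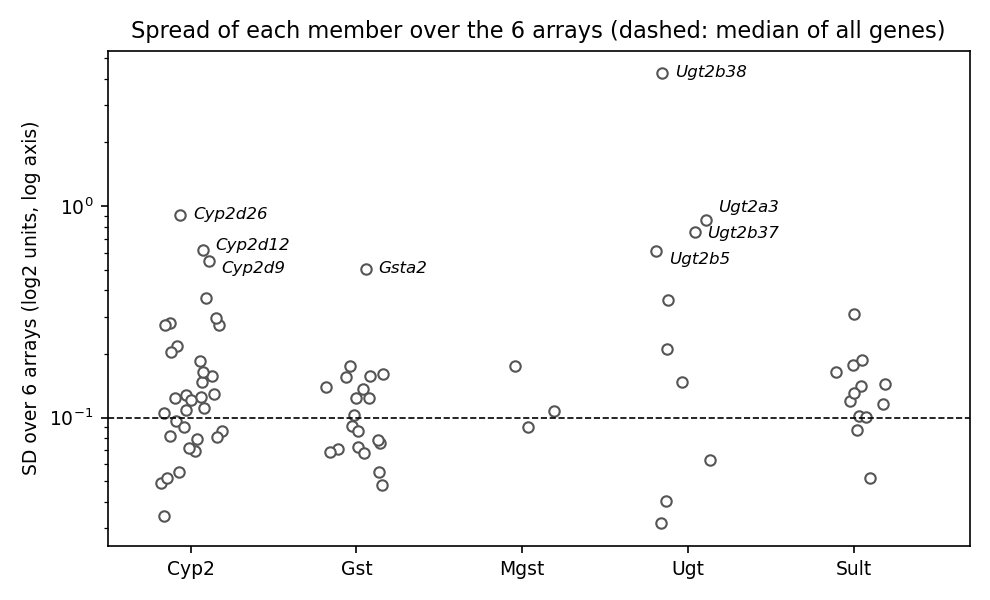
SD over the 6 arrays (log2 units, y axis on a log scale) of each member by family (x axis), with a dashed line at the median of all genes (0.0993). Ugt2b38 stands highest at 4.25, and the other labelled genes lie between 0.50 and 0.91.

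Genes that supply, control or follow these enzymes were read as whole lists, and no gene of any list passed the test. Cofactor and partner enzymes were higher for 7 and lower for 12 of 19 measured genes (median -0.032). Of these Cyb5r3, the reductase of cytochrome b5, read 11.55, 11.43 and 11.38 in ICD kidneys, against 11.68, 11.59 and 11.64 in wild type kidneys. All ICD arrays were lower, by -0.18 ± 0.073 (SE, limma adjusted p = 0.834). The brightest of the list, Cyb5a (cytochrome b5) and Gclc (glutathione synthesis), differed by -0.040 and -0.30. Regulators were higher for 7 and lower for 9 of 16 (median -0.0058). Ppara, the nuclear receptor of fatty acids, read 10.63, 11.11 and 10.89 in ICD kidneys, against 10.68, 10.41 and 10.05 in wild type kidneys. Wild type 1 lay just above ICD 1, and the difference was 0.50 ± 0.17 (SE, limma adjusted p = 0.744). The brightest regulators, Hnf4a and the bile acid receptor gene Nr1h4, differed by -0.083 and -0.070.

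Targets of the oxidant sensor Nrf2 outside the families were higher for 3 and lower for 9 of 12 (median -0.081), with none at an unadjusted p under 0.05, and the brightest, Me1, which makes NADPH, differed by -0.19. Targets of the aryl hydrocarbon receptor outside the families were higher for 3 and lower for 4 of 7 (median -0.0015). Cyp1a1, the classical target of that receptor, was dim and read 5.45, 5.57 and 5.49 in ICD kidneys, against 5.69, 5.58 and 5.99 in wild type kidneys, and so differed by -0.25 ± 0.11 (SE, limma adjusted p = 0.843). Leaving out the array labelled wild type 3 gave -0.13. The brightest, Tiparp and Nqo1, differed by 0.12 and -0.0015, and for Tiparp the difference was -0.013 without ICD 2. Androgen-dependent kidney genes were higher for 2 and lower for 5 of 7 (median -0.034). Their brightest, Kap and Cyp4b1, differed by -0.014 and 0.030, and Kap read 14.99 to 15.11 on the 6 arrays.

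Uptake and efflux carriers of conjugates were higher for 11 and lower for 7 of 18 (median 0.070). Slco4c1, a basolateral organic anion carrier of the proximal tubule, read 8.49, 8.46 and 8.01 in ICD kidneys, against 8.29, 6.59 and 6.01 in wild type kidneys. Wild type 2 and the array labelled wild type 3 were low, while wild type 1 lay among the ICD arrays. The difference was 1.36 ± 0.49 (SE, limma adjusted p = 0.782). Leaving out the array labelled wild type 3 gave 0.88, and leaving out wild type 1 gave 2.02. The brightest carriers, Slc17a3 and Slc47a1, differed by 0.0032 and 0.073.

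RNA of other tissues was looked for, since liver and adrenal gland express many of these enzymes. The 8 liver markers had a median difference of 0.033, with scores of 0.089, 0.067 and -0.15 in ICD kidneys and -0.033, 0.017 and 0.013 in wild type kidneys, and 3 of them were below the median signal of the array. One of the 8, the apolipoprotein gene Apoa2, read 7.94, 7.84 and 7.96 in ICD kidneys, against 7.46, 7.50 and 7.44 in wild type kidneys. All ICD arrays were higher, by 0.45 ± 0.067 (SE, limma adjusted p = 0.328). The liver median was 0.0058 to 0.10 without single arrays, lowest without ICD 2 and highest without ICD 3. The 6 adrenal markers had a median of -0.091, with scores of -0.0023, -0.095 and -0.017 in ICD kidneys and 0.048, 0.060 and 0.0066 in wild type kidneys. Other marker lists with median differences above 0.3 were early proximal tubule (0.47, 8 of 8 higher), podocytes (0.46, 6 of 6 measured higher) and adipose tissue (0.37, 3 of 3 measured higher). Without the array labelled wild type 3 the early proximal tubule median was 0.17, with 6 of 8 higher, and without wild type 1 it was 0.81. The adipose median came to 0.15 when wild type 1 was left out, and to 0.24 when ICD 1 was. The podocyte median was 0.35 to 0.52 without single arrays, with 6 of 6 higher each time. The part of any of these in the members' differences was not tested.

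Of the 17 members with more than 1 probe set, 12 gave the same sign at all of them and 5 gave both signs. The 5 were Cyp2b10, Cyp2d22, Cyp2j6, Gstm3 and Sult4a1, all with differences between -0.20 and 0.26. Members of these families are close relatives, and 17 of the 80 probe sets carry a suffix (_s, _x or _a) that marks probes which may also match other transcripts, so a paralog's RNA can add to a value. How far it did was not tested.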

How the data were processed

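Total RNA from 6 kidneys was hybridised by the authors to 1 Affymetrix array per animal, and the labels gave each array's group and number. The deposited signals run from 3.11 to 15.11, a log2 scale, and the submitters' processing notes name RMA. RMA corrects background, gives all arrays 1 distribution and combines probes into probe sets, which removes shifts shared by most transcripts and compresses differences of dim probe sets. Values are not ratios and were not centred per gene. RMA's version and the chip definition are not given in the sources used here. Array medians lay between 6.62 and 6.66, and no pair of arrays was identical.

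Of 45101 rows, 64 controls were left out. The platform annotation gave 1 symbol for 34945 probe sets, several for 932 and none for 9160. All 80 member symbols were found in RefSeq (GRCm38.p6) and 0 needed an update. A further 6 probe sets with several symbols, 3 of them Ugt1, were not used, so the Ugt1 genes are not analysed here. Promoter entries matched 67 of the 80 genes, and names and gene order also came from RefSeq. The files' annotation gives no coordinates used here.

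The comparison of ICD with wild type used limma 3.58.1 under R 4.3.3: lmFit and eBayes on genotype alone, 2-sided, with p adjusted by Benjamini-Hochberg over 45037 probe sets and a threshold of 0.05. The fit was tested on simulated data. Intervals are 95%. An exact permutation test of 3 against 3 cannot go below 0.1 and was not used. The number of arrays limits the precision. Members and lists were chosen with earlier results of these data known. In each family the rule named the 3 brightest genes, the 2 highest and 2 lowest differences among genes at or above the median signal, genes at an unadjusted p under 0.05 without overlap, and, over all families, the 3 most variable members. In the pathway lists it named genes at an unadjusted p under 0.05 and the 2 brightest. Cyp2d12, Cyp2c23, Cyp2j9, Gstt4, Gstt1, Gstt2, Ugt2b34, Ugt2b36, Ugt2b1, Ugt2b35, Slc5a12, Pck1 and Apoa2 were named after their values were seen. Alternatives were quantile normalization, bright probe sets only, a trended robust prior, array weights, the replicate number as a block, the mean of a gene's probe sets, and leaving out each array. Leaving out arrays for the marker lists was chosen after seeing the data.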

Additional observations from a re-analysis of the deposited data

How the results depend on the processing

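Of 51 named genes, 27 kept the sign of their difference under every alternative and 24 turned it under at least 1, in 44 of 604 values. All but 2 of these turns came from leaving out 1 array. With array weights Ugt2b38 differed by 0.21 and Cyp2d12 by -0.11. Leaving out each array in turn gave differences of -3.12 to 2.29 for Ugt2b38, and Cyp2c23 -0.027 to 0.50, Cyp2d12 -0.43 to 0.34, Cyp2d9 -0.55 to 0.10, Cyp2e1 -0.048 to 0.014, Cyp2j13 -0.044 to 0.32, Cyp2j5 -0.012 to 0.037, Gsta2 -0.0097 to 0.60, Gstm5 -0.025 to 0.085, Gstp1 -0.084 to 0.014, Mgst1 -0.13 to 0.086, Mgst2 -0.027 to 0.10, Mgst3 -0.036 to 0.077, Sult1a1 -0.11 to 0.078, Sult1b1 -0.24 to 0.0075, Sult1c2 -0.29 to 0.16, Ugt2b36 -0.032 to 0.25, Ugt3a1 -0.053 to 0.022, Cyb5a -0.081 to 0.0096, Nr1h4 -0.19 to 0.069, Tiparp -0.013 to 0.20, Nqo1 -0.10 to 0.072, Kap -0.034 to 0.016 and Slc17a3 -0.014 to 0.028. The count of probe sets past the threshold was 0 in the limma fit reported, 1 with a trended robust prior and 0 to 1 without single arrays, at 1 without ICD 1, ICD 2 or the array labelled wild type 3. The count of member genes was 0 to 1 without single arrays, with Ugt2a3 passing without ICD 1, and 0 under the other alternatives. The Ugt median of 0.056 was 0.014 to 0.26 without single arrays, 0.14 with array weights and 0.0029 among bright probe sets. The Sult median of -0.025 was -0.085 among bright probe sets, where fewer genes remain. With the replicate number as a block, 0 probe sets and 0 members passed and the family medians (Ugt 0.056, Cyp2 0.0041) and all signs stayed as reported. Deviations of same-numbered arrays correlated at -0.0057, 0.0077 and -0.047, beside -0.062 to 0.076 for arrays of different number. Same-numbered arrays thus showed no shared shift over all probe sets. The labels do not say whether the numbers follow litters or handling. At low signal, as for Ugt2b1, Ugt2b35 and Sult2a2, differences are compressed and a change could go unmeasured.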

Other observations

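A few probe sets outside the families repeated the low values of Ugt2b38 on ICD 2 and on the array labelled wild type 3. They were chosen after their values were seen, from probe sets with an SD over 0.5 and a correlation with Ugt2b38 beyond 0.95 in size over the 6 arrays, and are given as a description only. Mcm6, a subunit of the replicative helicase, read 8.24, 6.53 and 8.59 in ICD kidneys, against 8.56, 8.49 and 6.20 in wild type kidneys. Its second probe set, 1438852_x_at, read 6.02, 3.98 and 6.64 in ICD kidneys, against 6.59, 6.41 and 3.95 in wild type kidneys. Stbd1, a glycogen-binding protein encoded on chromosome 5 like the Ugt2 genes, read 7.90, 5.99 and 7.91 in ICD kidneys, against 8.57, 8.33 and 5.88 in wild type kidneys. Of the members, Cyp2d12 met the same limits with the opposite sign. Uba6, a ubiquitin-activating enzyme encoded on chromosome 5 and looked at for its place there, has 5 probe sets. At 1428946_at the values were 8.10, 8.95 and 8.71 in ICD kidneys, against 8.09, 8.18 and 9.09 in wild type kidneys. At 1439302_at the values were 5.74, 5.43 and 5.74 in ICD kidneys, against 5.90, 5.82 and 5.44 in wild type kidneys, low on ICD 2 and the array labelled wild type 3 where the first was high. At 1428944_at and 1428945_at those 2 arrays were the highest, as at the first, and 1443927_at, near the array's floor, followed neither pattern.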
